A study of Mus musculus with 9 samples.

Results

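The genes described here are 50 genes of the TGF-β family pathway, listed by symbol and followed through 9 RNA-Seq libraries of mouse AdvSca1-SM cells. They comprise 3 TGF-β ligands, 10 BMP and GDF ligands, 3 activin and inhibin subunits, 6 type I and 4 type II receptors, 1 co-receptor, 8 SMADs, 5 latency proteins, 6 intracellular inhibitors or ubiquitin ligases, and 4 target genes. The count table listed 55416 genes, and each of the 50 symbols belonged to 1 of them. Of the 50, 47 passed the filter on low counts and were among the 14879 genes tested. Bmp5, Bmp7 and Gdf5 did not pass. They had at most 4.50, 0.976 and 13.6 normalized counts in any library.

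AdvSca1-SM cells are progenitor cells of the arterial adventitia that derive from smooth muscle cells and carry the surface protein Sca1. They were sorted as YFP-positive, Sca1-positive cells from carotid arteries and the arch and descending part of the aorta, combined over 8-week-old SM22α-Cre-YFP mice on a C57BL/6 background, in which the SM22α promoter drives Cre, so that the label marks any cell with a smooth muscle history. The cells were subcultured, and each group had 3 libraries. Stem cells received vehicle in stem cell medium, whose maintenance form holds 10% FBS and basic fibroblast and epidermal growth factors. TGF-β cells were growth arrested for 24 h, moved to DMEM with 0.1% FBS and given 5 ng/mL TGF-β1. Both cells were handled like TGF-β cells and also received 50 μM PFI-3, a compound that occupies the bromodomain of Brg1, a chromatin remodeler. Exposure lasted 72 h and all cells received 0.1% DMSO. Medium and TGF-β1 therefore changed together between Stem and TGF-β, and their contributions cannot be told apart. A change described below as with TGF-β is the difference between these groups, medium included. TGF-β and Both differed in PFI-3. The labels number the libraries of a group without saying that they came from separate animals, so the p-values measure the spread between these libraries.

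Ligands of this family are secreted as dimers, and the TGF-β isoforms leave the cell in a latent complex with a latent TGF-β binding protein, the product of an Ltbp gene. An active ligand brings type II and type I serine/threonine kinase receptors together. The type I receptor then phosphorylates receptor-activated SMADs, Smad2 and Smad3 for TGF-β and activin, and Smad1, Smad5 and Smad9 for BMP. These join Smad4 and enter the nucleus, where they alter transcription. Smad6, Smad7, Ski, Skil and Pmepa1 act against the signal, and TGF-β is a well-known driver of myofibroblast formation in fibroblasts of the vessel wall.

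Total counts per library ranged from 35686291 to 47741128. The values below are counts normalized for library size by TMM, which do not account for gene length. Where levels of different genes are compared, they are given per kilobase of exon. Genes were called in 2 ways with edgeR's quasi-likelihood test and Benjamini-Hochberg adjustment over all genes tested. In what follows, a gene that rose or fell had an adjusted p below 0.05, and a gene past the threshold also changed by more than 2-fold. Stem replicate 2 stood apart from the other Stem libraries. A single gene without a symbol, ENSMUSG00000119584, took 4.70% of the counts in Stem replicate 2, against 0.364% and 0.477% in the other Stem libraries. The same gene took 1.39% to 2.32% in TGF-β and 0.978% to 1.77% in Both. How much of the difference between the Stem libraries lay in that gene was not tested. Without Stem replicate 2, the members past the threshold numbered 21 between Stem and TGF-β, 0 between TGF-β and Both and 19 between Stem and Both.

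Marker genes were compared with the label. The 7 adventitial progenitor markers summed to 80503 to 89713 normalized counts in Stem, 18979 to 20672 in TGF-β and 16559 to 18252 in Both. The 6 smooth muscle markers summed to 10110 to 12817, 22421 to 24850 and 17166 to 18092. The members of these lists did not all move alike. From Stem to TGF-β, 5 progenitor markers passed the threshold downward and 1, Pi16, upward (3.51), and 3 smooth muscle markers passed upward and 1, Myh11, downward (-1.58). In that comparison 10.6% of all genes tested passed it upward and 14.5% downward. The 6 endothelial markers were low and summed to 115 to 249 in Stem, 59.4 to 93.7 in TGF-β and 52.7 to 70.1 in Both. Of the 4 tested, 1 passed the threshold upward and 2 downward from Stem to TGF-β. The 6 macrophage markers summed to 140 to 152, 178 to 219 and 291 to 307, with 2 of them, Adgre1 and C1qa, at 0 throughout. Of the 3 tested, 2 passed the threshold upward from Stem to TGF-β. With PFI-3, 2 of the 3 were higher at an adjusted p below 0.05, against 3.54% of all genes. The sums of all 4 lists thus differed between Stem and TGF-β, whereas the endothelial sums of TGF-β and Both overlapped. The part of these markers in the results below was not tested. The extraction label names hepatic tissue, but 7 of 8 hepatocyte markers had 3 counts or fewer in every library, and the eighth, Ahsg, lay between 237 and 277 in Stem and at or below 16.2 elsewhere. In bulk RNA, fewer cells of a type and less RNA per cell cannot be told apart.

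Between Stem and TGF-β, 20 of the 47 members tested passed the threshold, 9 upward and 11 downward. That is 42.6% of the members, against 25.1% of all genes tested (10.6% upward and 14.5% downward). At an adjusted p below 0.05 alone, 17 rose and 23 fell, together 85.1% against a background of 75% (37.3% upward and 37.7% downward). The libraries of the groups did not overlap for 42 of 47 members, against 76.8% of all genes. The median log2 fold change of the members was -0.10, and that of all genes was -0.00.

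Between TGF-β and Both, 0 of 47 members passed the threshold in edgeR, where the background was 0.632% of all genes (0.161% upward and 0.47% downward), and DESeq2 also called 0. At an unadjusted p below 0.05, 21 of 47 members differed in edgeR, as did 3583 of the 14879 genes tested. At an adjusted p below 0.05, 3 members rose and 11 fell with PFI-3, together 29.8% against 8.92% of all genes (3.54% upward and 5.38% downward). This count of 14 was 8, with 1 upward, without TGF-β replicate 3 or without Both replicate 1, 9, with 1 upward, without Both replicate 3, and 10, with 1 upward, without TGF-β replicate 2. The libraries of these groups did not overlap for 25 of 47 members, against 32.7% of all genes. The median log2 fold change was -0.02 for the members.

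Stem and Both differed past the threshold in 18 members, 7 higher and 11 lower in Both, against 22.8% of all genes (9.55% higher and 13.2% lower). At an adjusted p below 0.05 alone, 17 were higher and 22 lower, together 83.0% against 73.3% of all genes (36.6% in each direction). All comparisons share libraries with each other, so their values are given side by side and no overlap between them is tested.

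**Figure D1:**
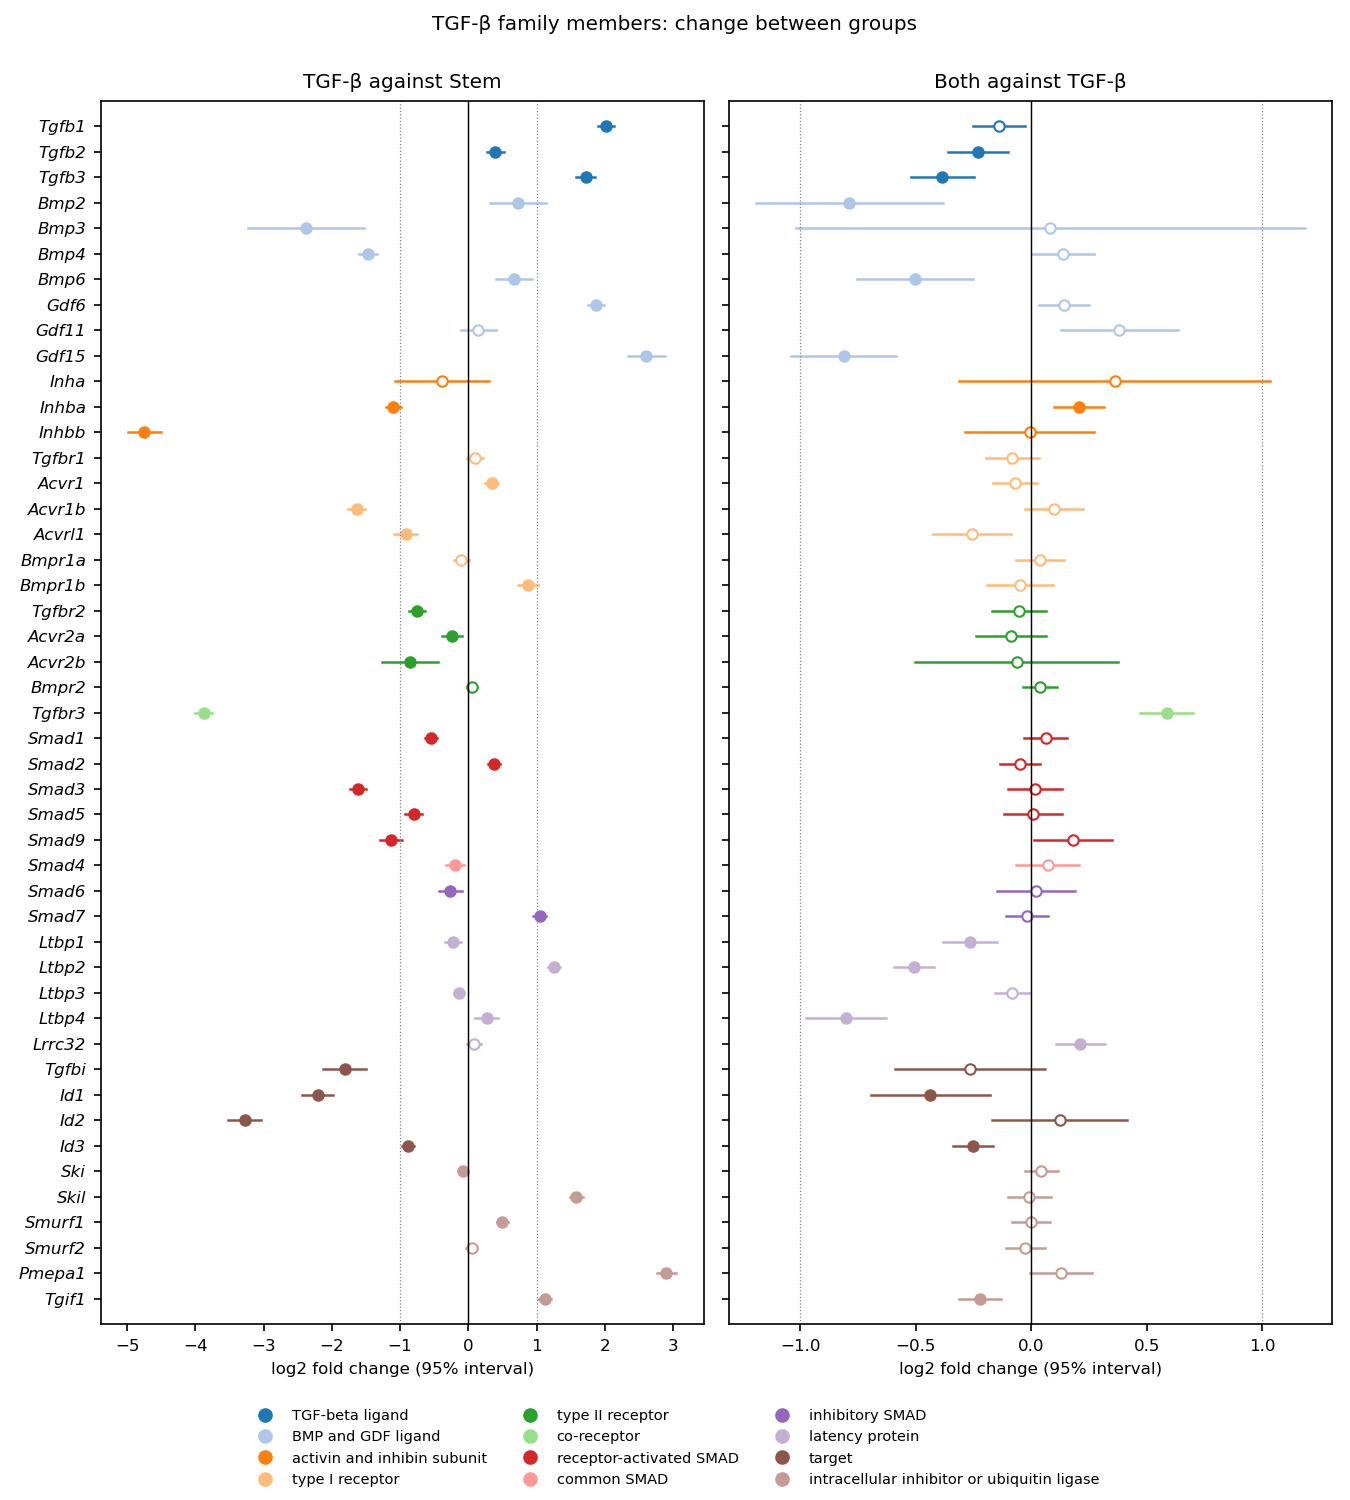
Log2 fold change of the 47 members tested, with TGF-β against Stem on the left and Both against TGF-β on the right. Points are edgeR estimates, lines are their 95% intervals, filled points have an adjusted p below 0.05, dotted lines mark 2-fold and colors give the role. The left axis spans -4.75 for Inhbb to 2.90 for Pmepa1, whereas on the right no estimate passes 2-fold and 14 points are filled.

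Promoter sequences are shown for 5 of the 8 ligand genes that passed the threshold between Stem and TGF-β, since these encode the secreted inputs of the pathway. They are the 250 bases before the start site, from RefSeq on GRCm38.p6, in windows that hold no annotated exon. Such a sequence was at hand for 35 of the 50 members. Capitals mark 4 motifs searched on both strands. These were CAGAC, a short SMAD-binding element, then GGCGCC, a GC-rich SMAD element, then GGGCGG, known as the GC box, and TATAAA, known as the TATA box. Of 32851 windows of this length, 42.2% held CAGAC, 9.59% held GGCGCC, 32.7% held GGGCGG and 12.4% held TATAAA. A match on the opposite motif strand appears as its reverse complement.
Tgfb1 (chr7:25686752-25687001, plus strand): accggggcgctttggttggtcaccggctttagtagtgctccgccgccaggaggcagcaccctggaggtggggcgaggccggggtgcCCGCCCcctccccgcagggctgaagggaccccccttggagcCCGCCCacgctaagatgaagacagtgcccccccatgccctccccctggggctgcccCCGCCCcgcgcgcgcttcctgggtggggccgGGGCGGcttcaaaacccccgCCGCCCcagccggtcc
Gdf15 (chr8:70632457-70632706, minus strand): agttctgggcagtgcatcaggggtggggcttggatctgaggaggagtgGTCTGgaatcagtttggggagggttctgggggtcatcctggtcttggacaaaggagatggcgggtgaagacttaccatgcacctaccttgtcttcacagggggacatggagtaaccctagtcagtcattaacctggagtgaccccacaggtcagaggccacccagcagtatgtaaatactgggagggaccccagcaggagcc
Bmp4 (chr14:46390670-46390919, minus strand): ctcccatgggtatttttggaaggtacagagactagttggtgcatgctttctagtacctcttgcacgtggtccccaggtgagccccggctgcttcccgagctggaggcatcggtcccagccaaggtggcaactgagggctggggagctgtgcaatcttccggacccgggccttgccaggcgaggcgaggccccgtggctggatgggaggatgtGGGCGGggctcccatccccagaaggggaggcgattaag
Inhba (chr13:16011601-16011850, plus strand): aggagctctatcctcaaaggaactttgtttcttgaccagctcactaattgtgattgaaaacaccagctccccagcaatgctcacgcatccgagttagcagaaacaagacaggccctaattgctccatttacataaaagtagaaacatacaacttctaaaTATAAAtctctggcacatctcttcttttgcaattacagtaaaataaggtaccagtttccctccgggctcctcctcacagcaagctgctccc
Inhbb (chr1:119422249-119422498, minus strand): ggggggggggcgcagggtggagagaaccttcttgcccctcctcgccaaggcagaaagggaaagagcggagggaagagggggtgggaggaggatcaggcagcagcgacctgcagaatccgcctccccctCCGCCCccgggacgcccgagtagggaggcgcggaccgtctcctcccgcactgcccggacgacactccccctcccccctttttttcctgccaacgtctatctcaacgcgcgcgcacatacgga

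The 5 windows differed in these letters. Tgfb1 held 5 GC boxes, Bmp4 and Inhbb held 1 each, Gdf15 held 1 CAGAC and Inhba held 1 TATAAA. Of the 9 members past the threshold upward, 4 had a sequence, of which 3 held CAGAC, 3 held GGGCGG and 0 held GGCGCC or TATAAA. Of the 11 downward, 8 had a sequence, of which 1 held CAGAC, 3 held GGCGCC, 7 held GGGCGG and 1 held TATAAA. A match is a description of the letters, and no binding was measured in these windows here.

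All 3 TGF-β ligand genes rose between Stem and TGF-β, with Tgfb1 and Tgfb3 past the threshold. Tgfb1, which encodes the isoform added to the cultures as protein, measured 1162, 1016 and 1121 normalized counts in the Stem libraries, 4541, 4214 and 4601 in TGF-β and 3989, 3918 and 4218 in Both. The Stem libraries were all far below the others, and TGF-β and Both overlapped. Its log2 fold change was 2.02 ± 0.06 (SE, n = 3 libraries per group, edgeR adjusted p = 1.6e-11) from Stem to TGF-β and -0.14 ± 0.05 (adjusted p = 0.126) from TGF-β to Both.

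Tgfb3, the isoform known from palate and scar studies, had 1838, 2143 and 2033 normalized counts in the Stem libraries, 6859, 6372 and 6556 in TGF-β and 5178, 5339 and 4640 in Both. No libraries of different groups overlapped, and Both lay between the others. The log2 fold change was 1.72 ± 0.06 (edgeR adjusted p = 2.08e-10) with TGF-β and -0.38 ± 0.06 (adjusted p = 0.00254) with PFI-3 added. Tgfb2 had 1170, 996 and 1027 in Stem, 1416, 1426 and 1369 in TGF-β and 1172, 1242 and 1176 in Both. It rose by 0.40 ± 0.06 (adjusted p = 6.68e-05) and fell by 0.23 ± 0.06 with PFI-3 (adjusted p = 0.0319).

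The makeup of the 3 ligand transcripts was also followed, as the share of each in their summed level per kilobase. Tgfb2 made up 15.7% ± 1.36 (SD, n = 3) of that sum in Stem and 6.33% ± 0.319 in TGF-β, while Tgfb1 stood at 38.8% ± 2.46 in Stem and 9.17 points higher in TGF-β, and Tgfb3 was at 45.5% ± 3.66 and 45.7% ± 0.706. In Both, Tgfb1 made up 51.9% ± 2.62 and Tgfb3 41.7% ± 2.56. With 3 libraries against 3, the two-sided exact permutation test cannot give a p below 0.1, which 24 of the 30 share tests reached. After adjustment over the 30, p lay between 0.125 and 0.8. The shares are therefore given as descriptions.

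The BMP and GDF ligands moved in different directions. Of 7 tested, 2 passed the threshold upward and 2 downward from Stem to TGF-β, against 10.6% and 14.5% of all genes. Gdf15, a stress-induced distant member of the family, had 103, 118 and 109 normalized counts in the Stem libraries, 765, 600 and 653 in TGF-β and 426, 334 and 388 in Both. The 3 groups did not overlap. It rose 6.10-fold with TGF-β (log2 fold change 2.61 ± 0.12, edgeR adjusted p = 1.65e-09) and fell with PFI-3 (-0.81 ± 0.10, adjusted p = 0.000591). The fitted drops of Ltbp4 and Bmp2 with PFI-3, -0.80 and -0.79, were of like size.

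Gdf6, a BMP-like ligand of joint and skeletal development, had 766, 731 and 756 in Stem, 2791, 2561 and 2896 in TGF-β and 3070, 2909 and 3120 in Both. It rose by 1.87 ± 0.05 (adjusted p = 2.03e-11), and PFI-3 gave 0.14 ± 0.05 (adjusted p = 0.0983). Bmp4, a ligand that signals through Smad1, Smad5 and Smad9, went the other way, with 5349, 4828 and 5473 in Stem, 2016, 1733 and 1916 in TGF-β and 2129, 2069 and 2030 in Both. It fell 2.76-fold (log2 fold change -1.47 ± 0.06, adjusted p = 4.64e-10), and Both differed from TGF-β by 0.14 ± 0.06 (adjusted p = 0.192).

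Per kilobase, Bmp4 stood at 2527 normalized counts in Stem against 213 for Gdf6. In TGF-β the levels were 915 for Bmp4 and 778 for Gdf6.

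Bmp2 and Bmp6, at lower levels, rose with TGF-β and fell with PFI-3. Bmp2 measured 56.5, 43.5 and 34.6 normalized counts in the Stem libraries, 85.2, 63.9 and 75.2 in TGF-β and 41.4, 43.4 and 44.8 in Both. Its log2 fold changes were 0.73 ± 0.19 (edgeR adjusted p = 0.00378) and -0.79 ± 0.18 (adjusted p = 0.0208). Bmp6 measured 247, 347 and 252 in Stem, 415, 487 and 443 in TGF-β and 302, 333 and 316 in Both, where the Both values lay within the range of Stem. Its log2 fold changes were 0.67 ± 0.12 (adjusted p = 0.000253) and -0.50 ± 0.12 (adjusted p = 0.019). Of the exonic bases of Bmp6, 6.23% overlap Txndc5 on the other strand, a gene with mean normalized counts of 21891 to 30383 in the groups, and the strand setting of the counting is not given in the sources used here, so Bmp6 carries an uncertainty.

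Bmp3 was low, at 30.4 to 80.4 normalized counts in Stem and at most 11.4 elsewhere, and it fell past the threshold (-2.38 ± 0.39, edgeR adjusted p = 0.000136). Gdf11 had 1827 to 2501 in Stem, 2201 to 2656 in TGF-β and 2779 to 3488 in Both, with adjusted p of 0.281 and 0.0639 for the 2 comparisons.

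The activin β subunit genes both fell past the threshold from Stem to TGF-β, as did 14.5% of all genes. Inhba, whose product dimerizes to activin A, had 13438, 13789 and 13685 normalized counts in the Stem libraries, 6553, 6063 and 6512 in TGF-β and 7757, 6869 and 7449 in Both. It fell 2.14-fold (log2 fold change -1.10 ± 0.05, edgeR adjusted p = 9.83e-10) and rose by 0.21 ± 0.05 with PFI-3 (adjusted p = 0.0214). Inhbb, the activin B subunit, had 7853, 5948 and 6802 in Stem but only 259, 243 and 265 in TGF-β and 228, 250 and 285 in Both. This 26.8-fold drop (-4.75 ± 0.11, adjusted p = 3.19e-12) was the largest of any member tested, and Both and TGF-β overlapped (-0.01 ± 0.13, adjusted p = 0.984).

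Per kilobase, Inhba was 1.34 ± 0.202 times Inhbb in Stem (SD, n = 3), 16.6 ± 0.231 times in TGF-β, and 19.5 ± 2.82 times in the Both libraries. This ratio was chosen after the values were seen and is given with no test. Inha, the inhibin α subunit, lay between 12.2 and 26.3 normalized counts in every library, with adjusted p of 0.281 and 0.531.

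**Figure D2:**
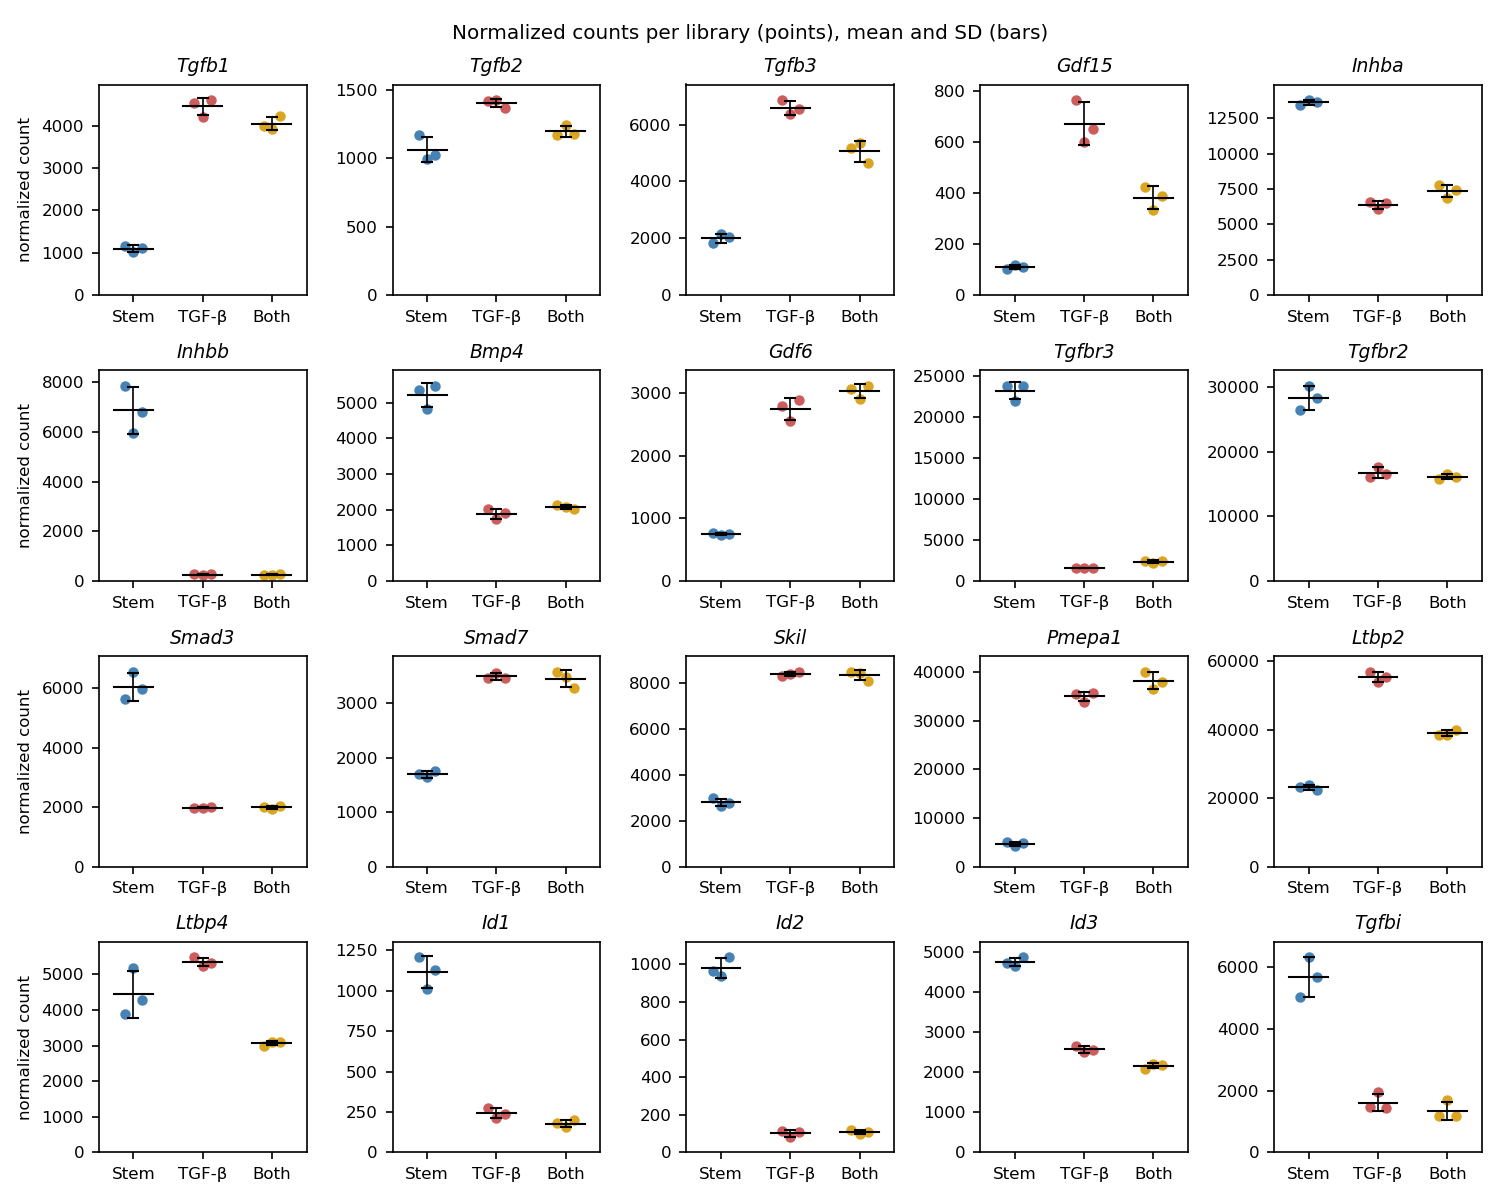
Normalized counts of 20 members in each library, with a linear axis from 0 in every panel, points for libraries, and bars for the mean and SD of 3 libraries per group. Inhbb, Tgfbr3 and Id2 are near the base of their panels in TGF-β and Both, Pmepa1 and Gdf6 are high in both, and for Tgfb3, Gdf15 and Ltbp2 the Both libraries lie between Stem and TGF-β.

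Of 10 type I and type II receptor genes, 1 passed the threshold from Stem to TGF-β, where 25.1% of all genes did. Between TGF-β and Both, edgeR called 0 of the 10 at an adjusted p below 0.05, against 8.92% of all genes, with 1 at an unadjusted p below 0.05. Tgfbr1, the type I receptor for TGF-β itself, had 3542, 3823 and 3344 normalized counts in the Stem libraries, 3679, 3946 and 3833 in TGF-β and 3647, 3751 and 3434 in Both. All 3 groups overlapped. Its log2 fold change was 0.10 ± 0.05 (edgeR adjusted p = 0.114, 95% interval -0.02 to 0.21), and it was 0.15 (adjusted p = 0.0108) without Stem replicate 2.

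Tgfbr2, the type II receptor that binds TGF-β first, had 26354, 30150 and 28340 in Stem, 16072, 17651 and 16453 in TGF-β and 15751, 16572 and 16020 in Both. It fell by 0.76 ± 0.05 on the log2 scale (edgeR adjusted p = 6.53e-08), and PFI-3 gave -0.05 ± 0.05 (adjusted p = 0.596). The per-kilobase ratio of Tgfbr2 to Tgfbr1 was 6.22 ± 0.406 (SD, n = 3) in Stem and 3.43 ± 0.0711 in TGF-β.

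Tgfbr3, which encodes betaglycan, a co-receptor that presents TGF-β to the type II receptor, showed the largest drop of the receptors. It had 23775, 22006 and 23819 normalized counts in the Stem libraries, 1634, 1557 and 1542 in TGF-β and 2426, 2204 and 2472 in Both. No groups overlapped. It fell 14.7-fold with TGF-β (log2 fold change -3.88 ± 0.06, edgeR adjusted p = 1.4e-13) and rose 1.50-fold with PFI-3 (0.59 ± 0.05, adjusted p = 6.78e-05), the largest rise among the members called. Its Both mean of 2367 remained far below the Stem mean of 23200. Per kilobase, Tgfbr3 was 1.11 ± 0.117 times Tgfbr2 in Stem, 0.127 ± 0.00910 times in TGF-β, and 0.198 ± 0.0164 times in the Both libraries.

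Acvr1b, the type I receptor for activin, had 2388, 2442 and 2368 normalized counts in the Stem libraries, 744, 817 and 752 in TGF-β and 776, 884 and 820 in Both. It fell 3.11-fold (-1.64 ± 0.06, edgeR adjusted p = 8.72e-11) and PFI-3 gave 0.10 ± 0.06 (adjusted p = 0.325). Acvrl1, a BMP receptor best known from endothelium, fell by 0.92, with 3497 to 4484 in Stem and 2013 to 2179 in TGF-β. Among the BMP type I receptors, Acvr1 rose by 0.35 and Bmpr1b by 0.88, whereas Bmpr1a had 10278 to 11802 in Stem and 10220 to 10413 in TGF-β (-0.10 ± 0.05, adjusted p = 0.0782).

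Of the remaining type II receptors, Acvr2a fell by 0.24 and the low Acvr2b by 0.85. For Acvr2a, 7.84% of the exonic bases overlap Orc4 on the other strand, which had mean normalized counts of 1073 to 1251. With the strand setting of the counting not given, Acvr2a carries an uncertainty. Bmpr2, the BMP type II receptor, had 13080 to 13471 normalized counts in Stem and 13802 to 13861 in TGF-β (0.05 ± 0.03, edgeR adjusted p = 0.185, 95% interval -0.02 to 0.13).

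Per kilobase, the order of the 11 receptor and co-receptor genes among the members was led in Stem by Tgfbr3 at 3811 and Tgfbr2 at 3454 normalized counts, followed by Bmpr1a at 1834, Acvrl1 at 1055 and Bmpr2 at 1034. On this scale the Stem libraries of Tgfbr3 and Tgfbr2 overlapped, as did those of Acvrl1 and Bmpr2, so neither pair can be ordered. In TGF-β the order among these 11 was Tgfbr2 at 2043, Bmpr1a at 1711, Acvr1 at 1174 and Bmpr2 at 1072, and Tgfbr3 stood at 259. Acvr2b was lowest of the 11 in each group, at 19.8, 10.9 and 10.5.

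**Figure D3:**
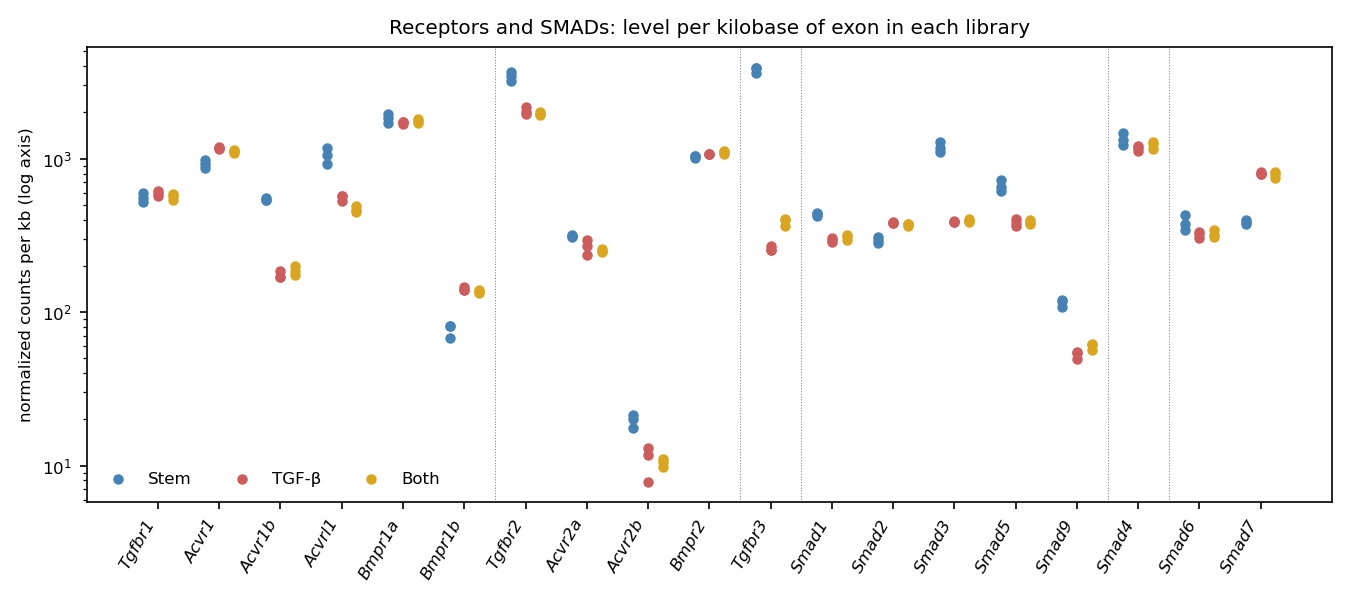
Normalized counts per kilobase of exon, on a log axis, for 11 receptor and co-receptor genes and 8 SMADs in each of the 9 libraries. Points are libraries, colors are groups, and dotted lines divide type I receptors, type II receptors, the co-receptor, receptor-activated SMADs, Smad4 and inhibitory SMADs. Tgfbr3 drops from 3811 in Stem to 259 in TGF-β, and Smad2 and Smad3 come together in TGF-β.

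Among the receptor-activated SMADs, 4 of 5 fell from Stem to TGF-β and Smad2 rose, in a comparison where 37.7% of all genes fell and 37.3% rose. Smad3, a transducer of TGF-β and activin signals that binds DNA directly, had 5628, 6563 and 5966 normalized counts in the Stem libraries, 1957, 1980 and 2002 in TGF-β and 1997, 1955 and 2053 in Both. It fell 3.06-fold (log2 fold change -1.61 ± 0.05, edgeR adjusted p = 5.96e-11), and TGF-β and Both overlapped (0.02 ± 0.05, adjusted p = 0.898). Smad2, its partner downstream of the same receptors, had 2408, 2643 and 2522 in Stem, 3313, 3291 and 3264 in TGF-β and 3217, 3121 and 3209 in Both. It rose by 0.38 ± 0.04 (adjusted p = 2.69e-06), with -0.05 ± 0.04 for PFI-3 (adjusted p = 0.516).

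Per kilobase, Smad3 was 4.04 ± 0.131 times Smad2 in Stem (SD, n = 3), 1.02 ± 0.0191 times in TGF-β, and 1.06 ± 0.0165 times in the Both libraries. This ratio was also chosen after the values were seen and has no test.

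The BMP-type SMADs fell together. Smad1 fell by 0.55 and Smad5 by 0.80 on the log2 scale, and Smad9 fell 2.18-fold, past the threshold, with 578 to 645 normalized counts in Stem, 265 to 293 in TGF-β and 305 to 335 in Both. Smad4, the partner shared by both branches, had 4384, 5262 and 4720 in Stem, 4035, 4305 and 4221 in TGF-β and 4477, 4582 and 4146 in Both. It fell by 0.19 ± 0.06 (edgeR adjusted p = 0.0138, and -0.31 when scaled by total counts), a call that was lost without Stem replicate 2 (-0.12, adjusted p = 0.0534) and without TGF-β replicate 1 (-0.16, adjusted p = 0.0698). Between TGF-β and Both, edgeR called 0 of the 5 receptor-activated SMADs at an adjusted p below 0.05, against 8.92% of all genes, and 1 at an unadjusted p below 0.05, with Smad9 at 0.18 ± 0.08 (adjusted p = 0.172). Smad4 was not called either (0.07 ± 0.06, adjusted p = 0.538).

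The inhibitory SMADs diverged. Smad7, which blocks type I receptors and recruits ubiquitin ligases to them, had 1692, 1637 and 1753 normalized counts in the Stem libraries, 3459, 3558 and 3459 in TGF-β and 3580, 3487 and 3276 in Both. It rose 2.06-fold (log2 fold change 1.04 ± 0.04, edgeR adjusted p = 5.56e-10), with -0.02 ± 0.04 for PFI-3 (adjusted p = 0.845). Smad6, which acts mainly on BMP signals, had 1115, 1017 and 1279 in Stem, 955, 904 and 983 in TGF-β and 951, 917 and 1015 in Both, and fell by 0.26 ± 0.08 (adjusted p = 0.00819). Without Stem replicate 3 this was -0.17 (edgeR adjusted p = 0.0427).

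Of the other intracellular inhibitors and ubiquitin ligases, 3 of 6 passed the threshold upward and 0 downward from Stem to TGF-β, against 10.6% and 14.5% of all genes. Pmepa1, a membrane protein that sequesters receptor-activated SMADs, had 5054, 4191 and 4793 normalized counts in the Stem libraries, 35430, 33931 and 35627 in TGF-β and 40113, 36586 and 38035 in Both. Its 7.48-fold rise (log2 fold change 2.90 ± 0.07, edgeR adjusted p = 3.03e-12) was the largest among the members tested. Both and TGF-β did not overlap, but the difference of 0.13 ± 0.06 had an adjusted p of 0.229.

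Skil, the corepressor SnoN, had 2970, 2662 and 2760 in Stem, 8295, 8384 and 8496 in TGF-β and 8493, 8454 and 8096 in Both. It rose by 1.58 ± 0.04 (edgeR adjusted p = 1.64e-11), with -0.01 ± 0.04 for PFI-3 (adjusted p = 0.942). Its relative Ski had 11308 to 11630 in Stem and 10749 to 10979 in TGF-β and fell by only 0.08. Tgif1, a homeodomain corepressor of Smad2 and Smad3, had 1060, 1138 and 1059 in Stem, 2356, 2386 and 2336 in TGF-β and 1955, 2063 and 2046 in Both. It rose by 1.12 ± 0.04 (adjusted p = 2.82e-10) and fell by 0.22 ± 0.04 with PFI-3 (adjusted p = 0.00637), the only gene of this group called in that comparison.

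The ubiquitin ligase gene Smurf1 rose by 0.50, whereas Smurf2 had 5475 to 5770 in Stem and 5763 to 5819 in TGF-β (0.05 ± 0.04, edgeR adjusted p = 0.282).

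Of the 5 latency proteins, 4 were called at an adjusted p below 0.05 between TGF-β and Both, 3 lower and 1 higher, against 8.92% of all genes, and 1 passed the threshold upward from Stem to TGF-β, against 10.6%. Ltbp2, an elastic fiber protein of the binding protein family that does not itself bind latent TGF-β, had 23376, 23759 and 22408 normalized counts in the Stem libraries, 56962, 53937 and 55251 in TGF-β and 38543, 38455 and 39976 in Both. The groups did not overlap, with Both in the middle. It rose by 1.26 ± 0.04 (edgeR adjusted p = 5.16e-11) and fell by 0.51 ± 0.04 with PFI-3 (adjusted p = 2.82e-05). Of its exonic bases, 11.3% overlap D030025P21Rik on the other strand, which had mean normalized counts of 58.9 to 63.4.

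Ltbp4 had 3875, 5171 and 4288 in Stem, 5476, 5243 and 5324 in TGF-β and 2999, 3108 and 3089 in Both. It rose by 0.27 ± 0.08 (edgeR adjusted p = 0.00875), but by 0.15 when scaled by total counts (adjusted p = 0.0578). With PFI-3 it fell by 0.80 ± 0.08 (adjusted p = 0.000125), to below every Stem library. Ltbp1, which anchors latent TGF-β to the matrix, had 27259, 31122 and 29020 in Stem, 25445, 24282 and 25006 in TGF-β and 21310, 21339 and 19520 in Both. It fell at each step, by 0.23 ± 0.05 (adjusted p = 0.00201, and -0.34 when scaled by total counts) and then by 0.27 ± 0.05 (adjusted p = 0.00904).

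Ltbp3 fell by 0.13 with TGF-β and had 17479 to 17810 normalized counts in TGF-β and 16600 to 16716 in Both (edgeR adjusted p = 0.18). Lrrc32, which encodes GARP, a membrane protein that tethers latent TGF-β to the cell surface, had 6503, 7181 and 6762 in Stem, 7276, 7226 and 7199 in TGF-β and 8584, 7826 and 8715 in Both. Its change with TGF-β was 0.09 ± 0.05 (adjusted p = 0.128, and 0.0208 without Stem replicate 2), and it rose by 0.21 ± 0.05 with PFI-3 (adjusted p = 0.0189).

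Per kilobase, Ltbp2 made up 28.2% ± 0.644 (SD, n = 3) of the 4 Ltbp genes in Stem, 50.8% ± 0.285 in TGF-β, and 46.1% ± 1.06 in the Both libraries. Ltbp1 made up 34.8%, 22.4% and 24.0% of the sum, Ltbp3 30.7%, 21.1% and 25.7%, and Ltbp4 6.24%, 5.67% and 4.18%. Ltbp2 thus ranked below Ltbp1 and Ltbp3 in Stem and above them in TGF-β and Both.

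**Figure D4:**
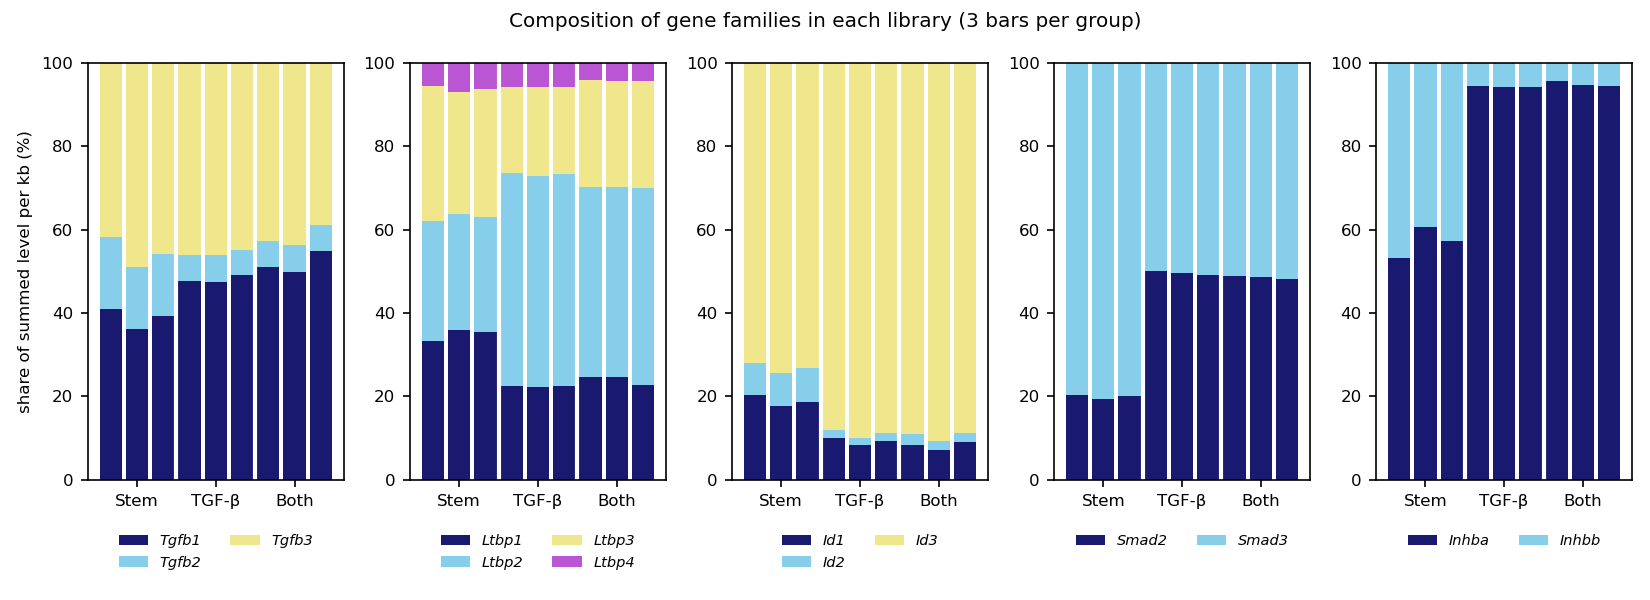
Share of each gene in the summed level per kilobase of its family, in percent, for the 3 TGF-β ligands, 4 Ltbp genes, 3 Id genes, Smad2 with Smad3, and Inhba with Inhbb. Each bar is 1 library, in 3 bars per group. Ltbp2 goes from 28.2% to 50.8%, Smad2 from 19.8% to 49.6% and Inhba from 57.1% to 94.3% from Stem to TGF-β.

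The 4 target genes among the members all fell from Stem to TGF-β, 3 past the threshold, where 37.7% of all genes fell and 14.5% passed the threshold downward. Id1, Id2 and Id3 encode helix-loop-helix inhibitors of differentiation that are induced by BMP signals in many cells. Id1 had 1207, 1012 and 1128 normalized counts in the Stem libraries, 274, 212 and 240 in TGF-β and 179, 157 and 198 in Both. It fell 4.61-fold (log2 fold change -2.21 ± 0.10, edgeR adjusted p = 1.54e-09) and again by 0.44 ± 0.12 with PFI-3 (adjusted p = 0.0408).

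Id2 had 966, 937 and 1037 in Stem, 117, 80.1 and 106 in TGF-β and 120, 99.7 and 110 in Both. Its fall was 9.71-fold (-3.28 ± 0.11, edgeR adjusted p = 7.65e-11), and TGF-β and Both overlapped (0.12 ± 0.13, adjusted p = 0.633). That difference ran from -0.02 to 0.23 when single libraries were left out, with no call. Id3 had 4741, 4667 and 4875 in Stem, 2669, 2503 and 2565 in TGF-β and 2094, 2218 and 2178 in Both. It fell by 0.88 ± 0.04 (adjusted p = 9.67e-10) and by 0.25 ± 0.04 with PFI-3 (adjusted p = 0.00226).

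Per kilobase, Id3 made up 73.2% ± 1.16 (SD, n = 3) of the 3 Id genes in Stem, 89.0% ± 1.03 in TGF-β, and 89.5% ± 1.12 in the Both libraries. Tgfbi, a matrix protein named for its induction by TGF-β in other cells, had 5011, 6309 and 5687 normalized counts in the Stem libraries, 1461, 1947 and 1433 in TGF-β and 1173, 1680 and 1185 in Both. It fell 3.51-fold (-1.81 ± 0.15, edgeR adjusted p = 2.39e-07), and PFI-3 gave -0.26 ± 0.15 (adjusted p = 0.311). That value ran from -0.11 without TGF-β replicate 2 to -0.45 without Both replicate 2, with no call in either, and was called with no filter on low counts (-0.26, edgeR adjusted p = 0.00369).

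Several calls between TGF-β and Both were close to the limit. Those of Tgfb3, Gdf15, Tgfbr3, Ltbp1, Ltbp2, Ltbp4, Id3 and Tgif1 held in all 14 alternatives. Leaving out single libraries raised the adjusted p to at most 0.123 for Tgfb2 (Stem replicate 3, any TGF-β replicate, Both replicates 1 and 3) and to at most 0.0868 for Bmp2 (TGF-β replicates 1 and 3, any Both replicate). It reached 0.0923 for Bmp6 and 0.107 for Inhba (TGF-β replicates 2 and 3, Both replicates 1 and 3), 0.0864 for Lrrc32 (any TGF-β replicate, Both replicates 1 and 3) and 0.147 for Id1 (Stem replicate 3, TGF-β replicates 1 and 3, Both replicates 1 and 2). Without Stem replicate 2, Tgfb1 and Pmepa1 gained a call (edgeR adjusted p = 0.0468 and 0.0465).

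Other genes of the pathway were grouped by role in 5 further lists of 67 genes, of which 46 were tested. Of these, 17 passed the threshold from Stem to TGF-β, 5 upward and 12 downward, together 37.0% against 25.1% of all genes. From TGF-β to Both, 2 passed it upward, 4.35% against 0.632% of all genes in either direction. Gdf10, a ligand related to Bmp3, had 3579, 3084 and 3582 normalized counts in the Stem libraries, 115, 66.9 and 86.9 in TGF-β and 230, 185 and 224 in Both. It fell past the threshold (-5.25 ± 0.13, edgeR adjusted p = 6.47e-12) and rose with PFI-3 (1.25 ± 0.16, adjusted p = 0.000591).

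Of 14 extracellular antagonists, 11 were tested, and 2 passed the threshold upward and 4 downward from Stem to TGF-β, where 10.6% and 14.5% of all genes did. Grem1, which encodes the BMP-binding protein gremlin, had 96702, 77827 and 88866 in Stem, 10414, 9083 and 10335 in TGF-β and 21571, 18574 and 21166 in Both, so that it fell (-3.14 ± 0.09, edgeR adjusted p = 1.83e-11) and rose with PFI-3 (1.04 ± 0.08, adjusted p = 3.21e-05). Fstl3, an activin-binding protein, rose (3.07 ± 0.06), and Dcn, the proteoglycan decorin, fell (-2.74 ± 0.11) and fell further with PFI-3 (-0.80 ± 0.11, adjusted p = 0.00103).

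Of 8 tested genes for latency and activation, 2 passed the threshold upward and 1 downward from Stem to TGF-β, beside 10.6% and 14.5% of all genes. Fbn1, whose product fibrillin-1 holds latent complexes in microfibrils, rose (1.44 ± 0.05) and fell with PFI-3 (-0.32 ± 0.05, edgeR adjusted p = 0.00145). Thbs1, an activator of latent TGF-β, rose (1.40 ± 0.10) and had an adjusted p of 0.196 with PFI-3. Among 5 other ligands tested, 1 passed the threshold upward and 2 downward from Stem to TGF-β, again beside 10.6% and 14.5% of all genes. Those downward were Gdf10, given above, and Gdf7 (-1.11 ± 0.14), and the low Bmp8a rose (2.01 ± 0.25). Among 4 other receptor genes tested, 0 passed upward and 2 downward, the BMP co-receptors Rgma (-1.26 ± 0.10) and Rgmb (-1.15 ± 0.06). Of 18 intracellular regulators tested, 0 passed upward and 3 passed downward, together 16.7% where 25.1% of all genes passed. The 3 were Usp11 (-1.70 ± 0.10), Nedd4l (-1.43 ± 0.04) and Tgif2 (-1.35 ± 0.15).

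Of 18 known TGF-β target genes, 14 passed the threshold upward and 1, Snai2, downward from Stem to TGF-β, against 10.6% and 14.5% of all genes, with a median log2 fold change of 1.70. Of the list, Acta2 and Tagln are also among the smooth muscle markers. Large rises were those of Il11 (3.67 ± 0.16, a fibroblast cytokine) and Col1a1 (3.08 ± 0.06, the collagen I α1 chain). With PFI-3, 8 fell at an adjusted p below 0.05, against 5.38% of all genes. Postn, which encodes the matrix protein periostin, was the gene that fell past the threshold (-1.74 ± 0.09, edgeR adjusted p = 2.09e-06).

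Of 8 tested BMP target genes outside the members, 3 passed the threshold upward and 2 downward from Stem to TGF-β, as did 10.6% and 14.5% of all genes. Those downward were Atoh8 (-3.45 ± 0.13) and Id4 (-3.10 ± 0.18), whereas the 3 upward genes were low, at fewer than 100 normalized counts in every library. Between TGF-β and Both, edgeR called 0 of the 8 at an adjusted p below 0.05, against 8.92% of all genes, with 3 at an unadjusted p below 0.05. The lists were drawn up with earlier results of these data known, so their counts are descriptions.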

How the data were processed

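RNA-Seq was run on 9 libraries in 3 groups of 3. The deposited values are raw read counts per Ensembl gene, which the authors did not normalize. The study's methods name Flexbar trimming and STAR alignment to GRCm39, whereas the submitters' processing notes name HISAT2 2.2.1, SAMtools 1.13 and HTSeq 0.11.3. The study's methods name a stranded library kit, but the strand setting of the counting is not given in the sources used here. Antisense overlaps, found for 11 of 50 members, therefore leave an uncertainty. Reads of near-identical copies could be split in ways these counts do not show. Total counts ranged from 35686291 to 47741128.

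Differential expression was computed with edgeR 4.0.16 under R 4.3.3, using TMM factors, the filterByExpr filter and 1 quasi-likelihood model of the 9 libraries whose term was group. p-values were adjusted over all 14879 genes tested. The threshold is an adjusted p of 0.05 and a log2 fold change beyond 1 in size. Normalized counts are scaled to a library of 41184338, where 3 counts equal 2.63 to 3.26. Replicates varied by a biological coefficient of variation of 6.13%. Lengths are exonic bases of another build (GRCm38), used only for per-kilobase levels.

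The gene members and lists were chosen with earlier results of these data known. Members named with values in every library are Tgfb1 to Tgfb3, Tgfbr1 to Tgfbr3, Smad2 to Smad4, Smad6, Smad7, the 15 largest changes past the threshold from Stem to TGF-β with at least 100 normalized counts, and every member called between TGF-β and Both. Other genes named are, per list, up to 3 with the largest change by that threshold and those past it between TGF-β and Both. Others were added for context after their values were seen.

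On simulated counts for Stem versus TGF-β with 200 changed genes, edgeR recovered 199 past the threshold in 14574 genes, with 3 false calls. The changed genes were well expressed, every true change was past the threshold, and all genes had the same spread between replicates. The simulation therefore cannot show how smaller changes, low genes or a library that stands apart are handled. Alternatives were DESeq2 1.42.0, its size factors, total counts, no filter, a replicate block, and leaving out each library; shares were also computed without length. Columns were all assigned to a sample. A result for 1 gene withheld for evaluation is left out.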

Additional observations from a re-analysis of the deposited data

How the results depend on the processing

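The count of members past the threshold lay between 20 and 21 for Stem against TGF-β, was 0 for TGF-β against Both, and lay between 18 and 19 for Stem against Both in all 14 alternatives. The count at an adjusted p below 0.05 between TGF-β and Both was 14, and between 8 and 18 when single libraries were left out (8 without TGF-β replicate 3 or Both replicate 1, 9 without Both replicate 3, 18 without Stem replicate 2). Each such fit had 1 library fewer. The labels do not say that the replicate numbers mark shared material, and deviations of same-numbered libraries correlated at -0.0539 to 0.196, not all above 0.1, so the numbers were not taken as pairs. The 3 pairs of replicate 2 did correlate (0.166, 0.196 and 0.139), and each library of replicate 2 correlated negatively with every library of another group and number. With a replicate block, the counts at an adjusted p below 0.05 were 43 for Stem against TGF-β, 20 (in place of 14) for TGF-β against Both and 40 for Stem against Both. Between TGF-β and Both the block gave calls to Tgfb1 (adjusted p = 0.0188), Gdf6 (0.0156) and Pmepa1 (0.0462), among others. Scaling by total counts put the all-gene median change from Stem to TGF-β at -0.12 (log2), and turned the uncalled values of Tgfbr1 and Lrrc32 to -0.02 and -0.03. Of 1092 alternative values for 78 fold changes of named members, 1048 kept their side of the test, 34 lost it and 10 gained it. Besides single libraries, total counts took the calls of Tgfb2 (adjusted p = 0.0732) and Id1 (0.0654) between TGF-β and Both, and Tgfbi gained one with no filter on low counts (0.00369) and with the replicate block (0.00904), where edgeR gave 0.311. The causes were not tested. Without division by length, the difference in the Ltbp2 share from Stem to TGF-β was 23.1 points in place of 22.6, and that of Id3 was 18.8 in place of 15.8 (15.2 to 16.4 with single libraries left out). The Id3 difference from TGF-β to Both, 0.49 points, became -0.0425 without division by length and ranged from -0.150 (without Both replicate 2) to 1.04 with single libraries left out. With 3 libraries per group, the share tests cannot pass 0.05. Bmp3, Acvr2b, Inha and Bmp2, with fewer than 100 normalized counts, have the widest intervals. Bmp7, at 0 to 0.976 normalized counts, was under the level of 3 counts in every library.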
